A study of Homo sapiens with 6 samples.

Results

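Ribosome biogenesis and RNA polymerase I (Pol I) genes are described here in OVCAR3 cells, an established line of high-grade serous ovarian cancer, as 44 genes named by symbol, all of which are among the 47577 loci of the expression table. The 44 genes were matched by their symbol alone, without use of their measured values, and were set beside the loci of the 45S rRNA precursor. PolyA plus RNA was sequenced from 3 libraries of cells treated with DMSO, the solvent, and from 3 libraries of cells treated with 200 nM THZ531, a covalent inhibitor of the transcriptional kinases CDK12 and CDK13, for 6 h. Titles, design text and the study's methods give THZ531 as the compound, and this was followed, although a protocol field gives THZ1. The labels call the libraries of a group biological repeats and say nothing more of their origin, so the p-values measure the spread between these libraries of 1 cell line. Reads counted on genes ranged from 60146046 to 70986130 in the DMSO libraries and from 53054048 to 57953296 in the THZ531 libraries. The deposited values are counts of reads after division by the size factor of the library, called normalized reads in the following. Their sum was 55389676 to 56639224 in DMSO and 65875609 to 66820371 in THZ531. In such bulk samples, fewer cells that express a gene and less of its RNA per cell cannot be told apart.

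Markers of the cell type were examined before the pathway. All 10 markers of serous carcinoma and epithelial cells reached the minimum for expression, and their values summed to 441986 to 453111 normalized reads in DMSO and 562942 to 575497 in THZ531, led by KRT8, while ESR1 was low (59.4 ± 15.3 and 56.4 ± 10.8, SD, n = 3). PAX8, the lineage factor of this tumor, had 11272 ± 545 normalized reads in DMSO and 1241 ± 121 in THZ531. Of 6 fibroblast markers 3 reached the minimum, with sums of 1659 to 1914 in DMSO and 3176 to 3517 in THZ531, led by COL1A1. DCN and LUM were listed at 0 in every THZ531 library and at 3.2 or less in DMSO. Sums of 4 endothelial markers, led by VWF, were 231 to 286.5 and 308.1 to 419.9, and all 4 reached the minimum. Of 5 leukocyte markers 3 did, led by CD68, with sums of 527.1 to 591.2 in DMSO and 517.3 to 598.2 in THZ531, and CD3E was at 0 in every library. The part of these markers in the results below was not tested.

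Ribosomes are built in the nucleolus. Pol I transcribes the rDNA repeats into the 45S precursor, initiation factors such as UBTF, RRN3 and the TAF1 proteins place the polymerase on the rDNA promoter, and small nucleolar ribonucleoproteins (snoRNPs) modify the precursor while it is cut and folded. Assembly factors then shape the small (40S) and the large (60S) subunit. The genes of these proteins are themselves transcribed by RNA polymerase II, they are widely used as markers of growth, and many of them are known targets of MYC.

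The region upstream of the start was printed for 5 of the 9 genes that passed both thresholds used below, to show where the letters of an ETS motif and of the E-box, the motif that MYC binds, lie in them. The sequences are from RefSeq (GRCh38.p14), 5′ to 3′ on the strand of the gene, and give the 250 bases before the start in RefSeq, which can differ from the start of the locus in the expression table, so that some windows reach into the locus as listed there. Capitals mark the letters CCGGAAG or their reverse complement CTTCCGG, the core that ETS factors bind, and the E-box CACGTG, which reads the same on both strands and does not overlap the ETS letters. UTP4 (chr16:69132399-69132648, plus strand) holds both motifs, NOC3L (chr10:94362940-94363189, minus strand) and NIP7 (chr16:69339522-69339771, plus strand) hold the ETS letters, and NOP56 (chr20:2652382-2652631, plus strand) and NOP2 (chr12:6568292-6568541, minus strand), the pair with the largest increases, hold neither.
UTP4: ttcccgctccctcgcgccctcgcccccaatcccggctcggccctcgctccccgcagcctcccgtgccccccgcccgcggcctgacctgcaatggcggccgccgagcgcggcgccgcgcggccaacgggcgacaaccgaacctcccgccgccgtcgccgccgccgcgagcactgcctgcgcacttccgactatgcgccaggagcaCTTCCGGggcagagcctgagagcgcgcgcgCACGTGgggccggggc
NOC3L: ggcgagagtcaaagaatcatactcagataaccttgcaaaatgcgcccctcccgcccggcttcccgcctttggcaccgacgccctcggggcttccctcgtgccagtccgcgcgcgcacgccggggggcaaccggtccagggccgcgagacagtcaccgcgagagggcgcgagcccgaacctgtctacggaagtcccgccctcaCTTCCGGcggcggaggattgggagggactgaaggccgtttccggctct
NIP7: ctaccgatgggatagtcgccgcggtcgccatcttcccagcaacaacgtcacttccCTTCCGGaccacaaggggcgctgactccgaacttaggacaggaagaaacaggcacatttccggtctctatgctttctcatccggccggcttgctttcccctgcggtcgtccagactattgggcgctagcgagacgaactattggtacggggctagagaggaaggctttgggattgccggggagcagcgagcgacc
NOP56: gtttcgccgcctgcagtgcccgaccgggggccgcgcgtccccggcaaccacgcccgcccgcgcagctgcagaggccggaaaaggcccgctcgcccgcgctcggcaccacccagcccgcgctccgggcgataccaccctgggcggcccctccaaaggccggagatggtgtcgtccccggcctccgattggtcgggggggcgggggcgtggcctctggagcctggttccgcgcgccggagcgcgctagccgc
NOP2: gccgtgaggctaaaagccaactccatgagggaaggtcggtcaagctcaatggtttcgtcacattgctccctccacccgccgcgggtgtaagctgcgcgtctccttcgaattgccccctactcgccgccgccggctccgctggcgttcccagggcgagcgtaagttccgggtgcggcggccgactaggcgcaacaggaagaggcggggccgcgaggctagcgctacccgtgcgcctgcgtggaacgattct

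A window was found for 36 of the 44 genes. RRP12, NOLC1, NOP58, TCOF1, POLR1E, RRS1, BOP1 and RRP1B had none in the table used. The ETS letters were present in 15 of the 36 (41.7%), in 37 of 95 other genes of the pathway with a window (38.9%), in 17.5% of 11509 expressed genes and in 10.2% of all 27305 symbols with a window. They were found in 2 of the 6 increased genes with a window, and in 1 of the 2 decreased genes. The E-box was found in 2 of 36 (5.56%), against 10.9% of expressed genes, 7.73% of all symbols and 17.9% of the other pathway genes. The GC box GGGCGG (or CCGCCC) was found in 69.4% of the 36, against 56.8% of the other pathway genes, 73.2% of expressed genes and 46.2% of all. CCAAT (or ATTGG) was found in 52.8% of the 36, against 31.6% of the other pathway genes, 41.0% of expressed genes and 37.0% of all. The 27305 symbols had 35116 windows, and a gene was counted if any of its windows held the letters on either strand. Genes with several starts were thus searched over more bases, and the counts say nothing of binding.

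limma was fitted to log2(value + 1) over the 17568 loci with at least 10 normalized reads in at least 3 of the 6 libraries. A gene was called at a fold change of at least 1.5 (0.585 on the log2 scale) with an unadjusted p of at most 0.05, and adjusted p-values are those of Benjamini and Hochberg over all loci tested. Of the 44 genes, 43 were tested, and NCL did not reach the minimum. Of all loci 39.5% were called in either direction. After treatment with THZ531, 7 of the 43 genes increased (16.3%), where 15.7% of all loci did, and 2 decreased (4.65%), where 23.9% of all loci did. The increased genes were NOP2, NOP56, TAF1A, NOC3L, UTP4, UTP15 and BOP1, and the decreased genes were NIP7 and GNL3. The other 34 were not called. The median log2 fold change of the 43 genes was 0.19 and that of all loci -0.01, with 29 genes above 0 and 14 below. The counts of increased and decreased genes depend on the scaling of the libraries. When all libraries were brought to one total, a shift of THZ531 by -0.243 on the log2 scale, 0 genes were called higher, 4 lower, and the median was -0.05. Of all 17568 loci, 1647 were called higher and 5615 lower in that scaling. With scaling to RPL34, a ribosomal protein transcript used as the qPCR reference of the study, the shift was -0.493. There 0 of the 43 genes were called higher and 11 lower, beside 1078 and 7524 of all 17568 loci. Each scaling moves all loci by nearly the same amount, so it leaves the place of a gene relative to the median of all loci about where it was, and 29 of the 43 genes were above that median in the deposited scaling.

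**Figure D1:**
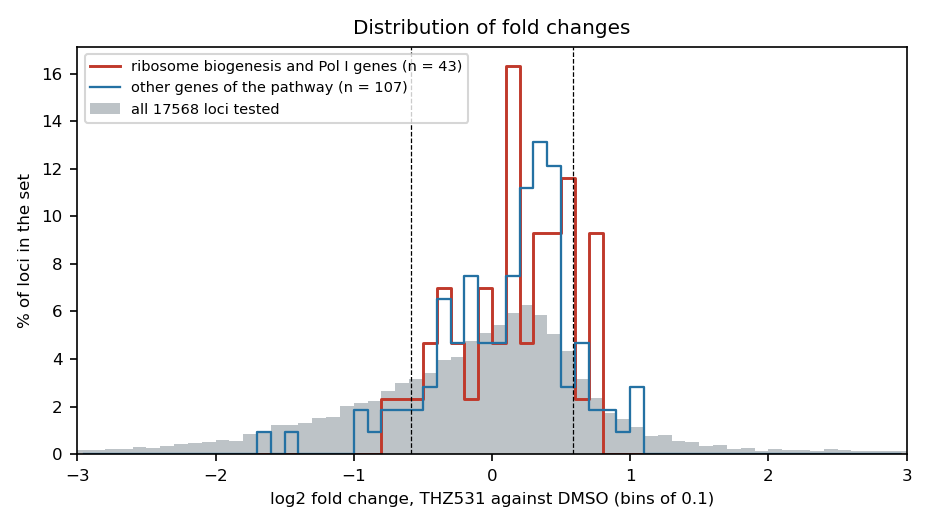
Percentage of loci (y axis) in bins of 0.1 log2 fold change of THZ531 against DMSO (x axis) for all 17568 loci tested (gray bars), the 43 ribosome biogenesis and Pol I genes tested (red line) and 107 other genes of the pathway (blue line), with the fold threshold of 1.5 as dashed lines. The 43 genes run from -0.73 to 0.78, and 79.1% of them lie between the dashed lines, against 56.2% of all loci.

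Most of the genes moved little, but with a narrow spread between libraries. The median coefficient of variation of a gene over the 3 libraries was 3.53% in DMSO and 2.67% in THZ531. In 26 genes every THZ531 library was above every DMSO library (in TAF1D by less than 1 normalized read), in 13 every THZ531 library was below, and in 4 (TCOF1, GAR1, RRP9 and BYSL) the groups overlapped. Thus 90.7% of the genes had groups that did not overlap, where 71.7% of all loci did (36.0% higher, 35.7% lower), and 83.3% of the 8959 loci with a DMSO mean of at least 500 (47.2% higher, 36.1% lower). At an adjusted p of at most 0.05 and any fold, 26 genes were higher and 10 lower, beside 34.6% and 34.1% of all loci (68.6% in either direction), and 46.6% and 35.4% of the loci with a DMSO mean of at least 500 (82.0%). With the fold threshold, 12.3% of those more abundant loci were called higher and 17.8% lower (30.2%). The median of the 43 genes lay 0.159 above their DMSO mean on the log2 scale in THZ531 replicate 1, 0.177 in replicate 2 and 0.234 in replicate 3, so that each library of the group lay above.

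**Figure D2:**
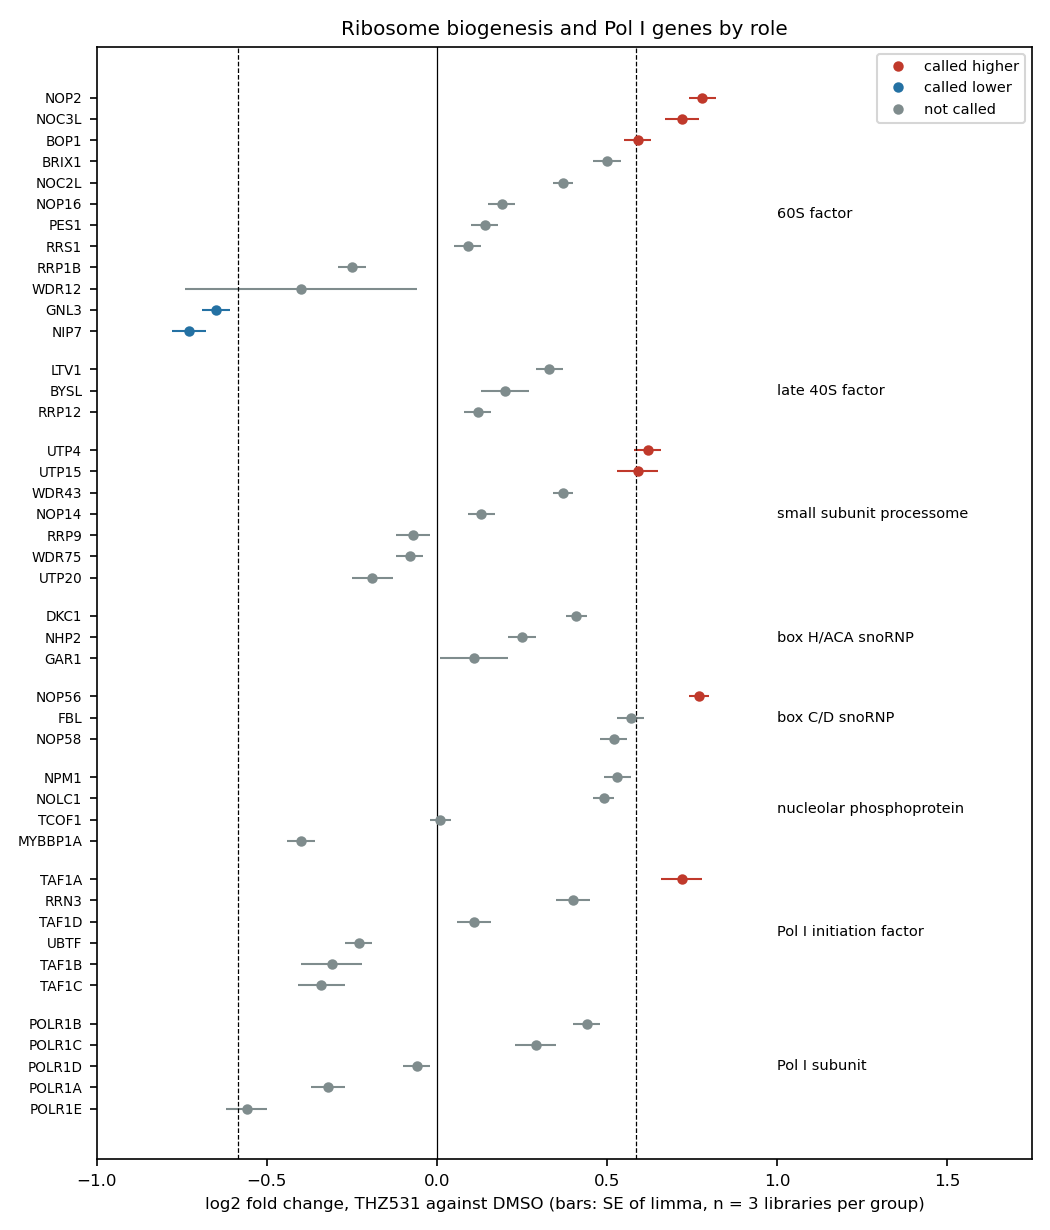
Log2 fold change of THZ531 against DMSO (x axis) with the standard error of limma (bars, n = 3 libraries per group) for the 43 tested genes (y axis), grouped by role, with dashed lines at a fold change of 1.5. The 7 genes called higher (red) and the 2 called lower (blue) are TAF1A, NOP56 and members of the small subunit processome and of the 60S factors, and WDR12 has the widest bar.

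Of the Pol I subunits in the list, 0 of 5 were called in either direction. POLR1A, the largest catalytic subunit, had 4632, 4440 and 4270 normalized reads in DMSO and 3301, 3625 and 3784 in THZ531 (log2 fold change -0.32, SE 0.05, adjusted p = 5.7e-05, limma). POLR1B, the second largest subunit, had 4663, 4391 and 4262 in DMSO and 5943, 5886 and 6180 in THZ531 (0.44, SE 0.04, adjusted p = 2.4e-07). Thus these partners in the catalytic center differed in opposite directions, each without overlap of the groups and each under the fold threshold, and with scaling to RPL34 the value of POLR1B was -0.06. POLR1E, a subunit of the module that acts in initiation and elongation, had 3623, 3294 and 3293 in DMSO and 2504, 2105 and 2335 in THZ531 (-0.56, SE 0.06, adjusted p = 7.5e-07), a 1.47-fold difference just under the threshold. Without THZ531 replicate 1 it was -0.62, past the threshold, and with scaling to the same total it was -0.80.

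The 2 listed subunits that Pol I shares with RNA polymerase III were not called. POLR1C had 2506, 2258 and 2415 normalized reads in DMSO and 2819, 2843 and 3102 in THZ531 (0.29, SE 0.06, adjusted p = 0.00023), and -0.21 with scaling to RPL34. POLR1D had 5621, 5501 and 5526 in DMSO and 5348, 5423 and 5239 in THZ531 (-0.06, SE 0.04, adjusted p = 0.21), so that the groups did not overlap but did not differ by the test. Inside POLR1C (chromosome 6, 43517088 to 43562407 on hg38) the table lists a locus without a symbol, from 43534263 to 43536758, that was called lower, from 88.8 to 49.2 normalized reads on average (-0.88, SE 0.26, adjusted p = 0.0075). It was the only one called of 12 such loci wholly inside the 44 genes, of which 3 reached the minimum.

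Among the initiation factors, 1 of 6 increased and 0 decreased. TAF1A (chromosome 1, 222557902 to 222589933), a subunit of the SL1 complex that binds the rDNA promoter, had 1540, 1488 and 1690 normalized reads in DMSO and 2610, 2466 and 2717 in THZ531. All THZ531 libraries were above all DMSO libraries, with a 1.65-fold increase (log2 fold change 0.72, SE 0.06, adjusted p = 2.3e-08). The other listed subunits of SL1 did not pass the fold threshold. TAF1B had 760.6, 629.1 and 602.4 in DMSO and 527.7, 529.7 and 539.3 in THZ531 (-0.31, SE 0.09, adjusted p = 0.0085). TAF1C had 1027, 1034 and 1049 in DMSO and 835, 747.9 and 878.3 in THZ531 (-0.34, SE 0.07, adjusted p = 0.0007). TAF1D had 2636, 2823 and 2961 in DMSO and 3130, 2976 and 2961 in THZ531 (0.11, SE 0.05, adjusted p = 0.077), with the lowest THZ531 library less than 1 normalized read above the highest DMSO library, and -0.13 with scaling to the same total. The 4 listed subunits of the same complex thus ranged from 0.72 to -0.34.

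UBTF, which binds along the active rDNA repeats and bends them, had 11654, 11878 and 12532 normalized reads in DMSO and 10310, 9876 and 10607 in THZ531 (-0.23, SE 0.04, adjusted p = 9.5e-05). RRN3, which makes Pol I competent to initiate, had 2959, 2643 and 2674 in DMSO and 3534, 3644 and 3694 in THZ531 (0.40, SE 0.05, adjusted p = 4.1e-06), and -0.10 with scaling to RPL34. Neither passed the fold threshold, and in neither did the groups overlap. RRN3 has copies that are pseudogenes, and reads could be split between them. RRN3P1, RRN3P2 and RRN3P3 had DMSO means of 80.0, 18.5 and 159.9 normalized reads, beside 2758 for RRN3.

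**Figure D3:**
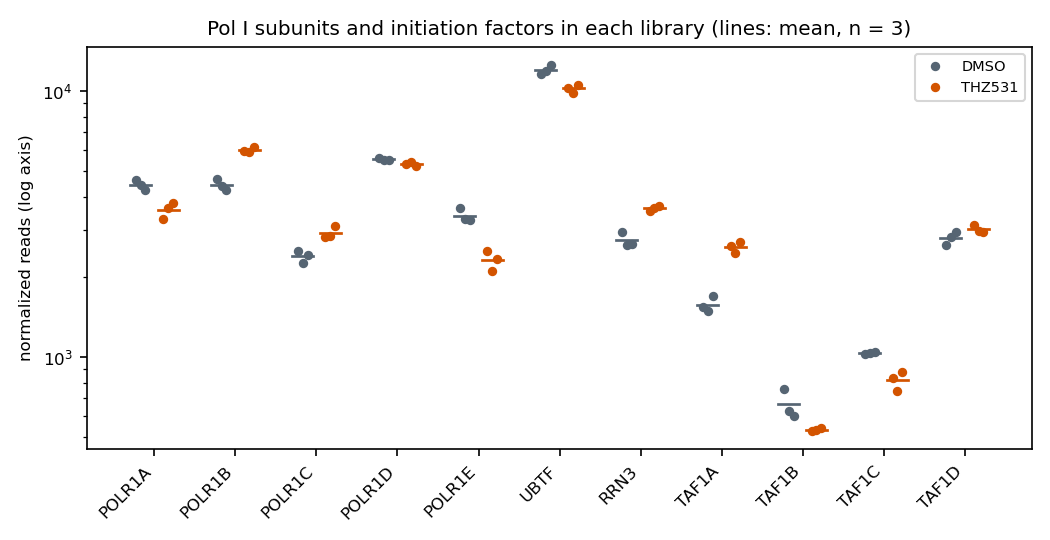
Normalized reads (y axis, log scale) of the 5 Pol I subunits and 6 initiation factors (x axis) in each DMSO (gray) and THZ531 (orange) library, with lines at the mean of 3 libraries. POLR1B, POLR1C, RRN3 and TAF1A lie higher and POLR1A, POLR1D, POLR1E, UBTF, TAF1B and TAF1C lower in every THZ531 library than in any DMSO library, TAF1D is at the border, and TAF1A, the only gene called, rises from a mean of 1573 to 2597.

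Of the nucleolar phosphoproteins and the snoRNP proteins, FBL and NPM1 had the highest levels of the 42 listed genes outside the chromosome 2 stretch described below. Per kilobase of the MANE transcript, the DMSO mean was 64239 normalized reads for FBL and 55109 for NPM1, while GAR1, with 2168, and MYBBP1A, with 2689, were far lower. Of the same 42 genes UTP20 had the lowest level on this scale, 215.8. NPM1, a chaperone of histones and of ribosomal subunits, had 69544, 72533 and 76155 normalized reads in DMSO and 105862, 103263 and 104919 in THZ531 (log2 fold change 0.53, SE 0.04, adjusted p = 2.1e-09). NOLC1, a scaffold for snoRNPs and Pol I, had 24005, 24782 and 25779 in DMSO and 35337, 34566 and 34869 in THZ531 (0.49, SE 0.03, adjusted p = 2.9e-09). These were 1.44-fold and 1.41-fold higher, with all libraries of the groups apart, and under the fold threshold. TCOF1, the nucleolar protein treacle, had means of 15461 and 15538 (0.01, adjusted p = 0.86), and MYBBP1A, a nucleolar protein that binds MYB, had 12257 ± 432 and 9268 ± 254 (SD, n = 3, -0.40).

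Of the 3 listed proteins of the box C/D snoRNPs, which guide methylation of the ribose of rRNA, 1 was called higher and 0 lower. In the deposited scaling, all 3 had every THZ531 library above every DMSO library, as did 36.0% of all loci. Among loci with a DMSO mean of at least 500, 47.2% did. NOP56 (chromosome 20, 2652532 to 2658393), a core protein of the particle, had 16519, 16231 and 16417 normalized reads in DMSO and 27365, 27754 and 28566 in THZ531, a 1.70-fold increase (log2 fold change 0.77, SE 0.03, adjusted p = 1.0e-11). FBL, the methyltransferase, had 67928, 73856 and 75023 in DMSO and 109831, 105713 and 105751 in THZ531 (0.57, SE 0.04, adjusted p = 2.0e-09), a 1.48-fold difference just under the threshold. Without DMSO replicate 3, in which FBL was highest of the DMSO libraries, its value was 0.60, past the threshold, and the lowest value with a library left out was 0.52. With equal totals FBL had 0.33 and with scaling to RPL34 0.08. NOP58, the partner of NOP56, had 15651 ± 557 and 22510 ± 257 (SD, n = 3, 0.52). NOP56 hosts small nucleolar RNAs in its introns, and reads on them are listed separately. In a polyA plus library these were few, with means of 35.1 and 67.4 normalized reads for SNORD110 and 16.6 and 32.4 for SNORA51.

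Of the 3 listed box H/ACA proteins, which carry out pseudouridylation, 0 were called. DKC1, the pseudouridine synthase, had 15905, 15935 and 16718 normalized reads in DMSO and 21749, 20990 and 21682 in THZ531 (0.41, SE 0.03, adjusted p = 3.0e-08), and -0.09 with scaling to RPL34. NHP2 had means of 10494 and 12478 (0.25). GAR1 had 1729, 2382 and 2490 in DMSO and 2448, 2403 and 2197 in THZ531 (0.11, SE 0.10, adjusted p = 0.34). DMSO replicate 1 was far below the other DMSO libraries for GAR1, whose groups overlapped with or without it, and it gave the gene the highest coefficient of variation of the tested genes in DMSO, 18.7%.

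In the small subunit processome, the particle that cuts out and folds the precursor of the small subunit, 2 of 7 increased and 0 decreased. UTP4 (chromosome 16, 69132628 to 69169023), a WD40 protein of the subcomplex that binds the 5′ end of the precursor, had 4886, 4987 and 4895 normalized reads in DMSO and 7465, 7532 and 7679 in THZ531, a 1.54-fold increase (0.62, SE 0.04, adjusted p = 6.3e-10). UTP15, of the same subcomplex, had 1514 ± 118 and 2275 ± 107 (SD, n = 3), a 1.5-fold increase at the threshold (0.59, SE 0.06, adjusted p = 5.5e-07). Its call was lost with upper-quartile scaling (0.57), with edgeR (0.56), and without DMSO replicate 2 (0.52), THZ531 replicate 1 (0.56) or THZ531 replicate 3 (0.57). WDR43 and WDR75, also of this subcomplex, had 0.37 and -0.08, the latter with an adjusted p of 0.09. NOP14 had 0.13, RRP9, a protein of the U3 snoRNP, -0.07 and UTP20 -0.19. UTP20 had the highest coefficient of variation of the tested genes in THZ531, 9.14%, with 1545, 1736 and 1856 normalized reads. Of the late 40S factors, which act up to the cytoplasmic steps, 0 of 3 were called, with 0.33 for LTV1, 0.20 for BYSL and 0.12 for RRP12.

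The factors of the large subunit held genes called in both directions, 3 higher and 2 lower of 12. NOP2 (chromosome 12, 6556863 to 6568314), an rRNA cytosine methyltransferase, had 8200, 8283 and 8214 normalized reads in DMSO and 14169, 13810 and 14567 in THZ531, a 1.72-fold increase and the highest of the 43 genes (log2 fold change 0.78, SE 0.04, adjusted p = 2.1e-11). NOC3L (chromosome 10, 94315247 to 94362958), which accompanies the precursor of the large subunit through the nucleolus, had 3426, 3137 and 3100 in DMSO and 5357, 5305 and 5249 in THZ531, a 1.65-fold increase (0.72, SE 0.05, adjusted p = 1.2e-09). BOP1 had 10846 ± 371 and 16313 ± 425 (SD, n = 3), a 1.5-fold increase at the threshold (0.59, SE 0.04, adjusted p = 1.0e-09). Its call was lost with edgeR and with upper-quartile scaling (0.57 in each), and without DMSO replicate 3 (0.56), THZ531 replicate 2 or THZ531 replicate 3 (0.58 in each). BOP1 forms the PeBoW complex with PES1 and WDR12, and PES1 had 17724 ± 714 and 19561 ± 138 (0.14), so that the increase of BOP1 was not shared by its partner at this size.

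The genes called lower were NIP7 and GNL3. NIP7 (chromosome 16, 69339679 to 69343106), which acts in processing of the large subunit precursor, had 6417, 6270 and 6852 normalized reads in DMSO and 4034, 3637 and 4110 in THZ531, a 1.66-fold decrease (log2 fold change -0.73, SE 0.05, adjusted p = 3.3e-09). GNL3 (chromosome 3, 52685920 to 52694497), the nucleolar GTPase nucleostemin, had 13272, 14030 and 14362 in DMSO and 9086, 8385 and 9090 in THZ531, a 1.57-fold decrease (-0.65, SE 0.04, adjusted p = 1.4e-09). In both genes all THZ531 libraries were below all DMSO libraries. GNL3 overlaps the end of GLT8D1 on the opposite strand, which was also called lower (926.2 to 482.2, -0.94). Of the other large subunit factors, BRIX1 had 0.50, NOC2L 0.37, NOP16 0.19, RRS1 0.09 and RRP1B -0.25.

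NCL and WDR12 could not be read as levels. NCL encodes nucleolin, one of the most abundant nucleolar proteins, yet it had 11.1, 9.3 and 8.8 normalized reads in DMSO and 6.3, 3.4 and 10.2 in THZ531. WDR12 had 33.3, 36.2 and 29.5 in DMSO and 23.9, 23.9 and 26.2 in THZ531 (-0.40, SE 0.34, adjusted p = 0.30). Both genes lie on the minus strand of chromosome 2 within a stretch from 181536672 to 233566782 on hg38 (52.0 Mb), in which 127 consecutive protein-coding genes of that strand, from CERKL to USP40, each had a mean of at most 28.8 normalized reads. Of these, 88 were listed at 0 in all 6 libraries, among them HSPD1, CUL3 and IDH1, which cells in culture generally use, and 8 reached the minimum. The genes on either side, CWC22 and HJURP, had means of 2125 and 3906. On the plus strand over the same stretch 118 of 151 protein-coding genes reached the minimum (78.1%), as did 362 of 433 minus-strand genes on the rest of the chromosome (83.6%). A locus without a symbol inside NCL, from 231454908 to 231458366, had 420.3 and 602.7 normalized reads (0.53, adjusted p = 0.00022). The cause of the stretch was not tested, and it was present in the DMSO and the THZ531 libraries. NOP58 and WDR75 lie in the same stretch on the plus strand, with means of 15651 and 6454 in DMSO. NCL was not tested and WDR12 was not called, so leaving them out could not change the calls of 7 and 2. The median of the genes stayed at 0.19. WDR12 is among the 13 genes with every THZ531 library below every DMSO library, and 12 remain without it. It is also among the 11 genes called lower with scaling to RPL34 (-0.88).

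**Figure D4:**
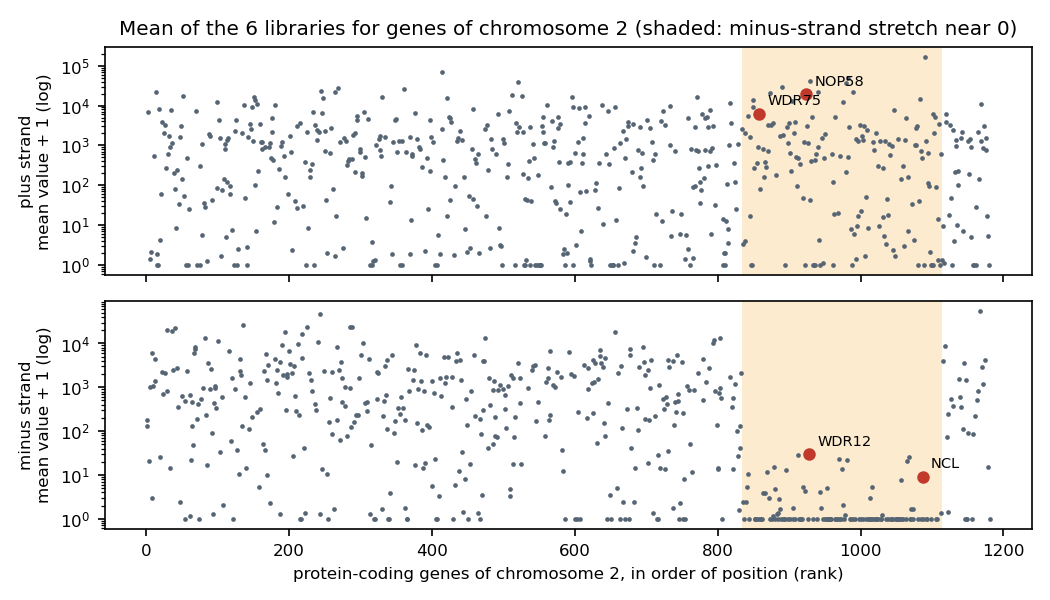
Mean normalized reads of the 6 libraries plus 1 (y axis, log scale) for protein-coding genes of chromosome 2 in order of position (x axis, rank) on the plus strand (top) and the minus strand (bottom), with the stretch shaded. On the minus strand all genes in the shaded area lie at or below 28.8, including NCL and WDR12 (red), while NOP58 and WDR75 (red) on the plus strand lie far above, with DMSO means of 15651 and 6454.

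The 45S rRNA loci were set beside the genes of the pathway. The table lists 3 loci on chromosome 21 whose symbols contain RNA45SN, and the near-identical rDNA copies mean that reads could be assigned to any of them. The locus of RNA45SN5 and RNA45SN1 (8433222 to 8446572) had 418163, 386343 and 546102 normalized reads in DMSO and 1321614, 1085738 and 1075115 in THZ531, a 2.58-fold increase (log2 fold change 1.38, SE 0.10, adjusted p = 3.6e-09, limma). RNA45SN3 increased 1.79-fold (0.83, SE 0.14, adjusted p = 5.7e-05) and RNA45SN2 1.90-fold (0.91, SE 0.09, adjusted p = 2.1e-07). In all 3 loci each THZ531 library was above each DMSO library in the deposited scaling. The main locus had a log2 fold change of 0.88 with scaling to RPL34 and of 1.13 with equal totals. The RPL34 shift of -0.493 takes RNA45SN3 and RNA45SN2 under the fold threshold of 0.585.

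As a share of the reads counted on genes, the 3 loci took 1.02%, 0.944% and 1.31% in the DMSO libraries, in the order of their replicate numbers, against 2.53%, 2.02% and 2.03% in the THZ531 libraries. The mean share was 1.09% ± 0.19 and 2.20% ± 0.29 (SD, n = 3), with a two-sided exact permutation p of 0.1, below which this design of 3 and 3 libraries cannot go. Summed, the loci had 612699 normalized reads in DMSO and 1455709 in THZ531 (2.38-fold), which is 843010 of the 10256360 by which the sum of all normalized values differed between the groups (8.22%). PolyA plus libraries select against rRNA, which mostly lacks a polyA tail, so the values count rRNA that remained after selection, and differences in its removal cannot be told apart from differences in its amount. In the deposited scaling, none of the 11 Pol I subunits and initiation factors listed differed by as much as the main rRNA locus, the nearest being TAF1A with 0.72. With equal totals the nearest was POLR1E with -0.8. With scaling to RPL34, POLR1E had -1.05, a larger difference than that of the main locus given above.

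**Figure D5:**
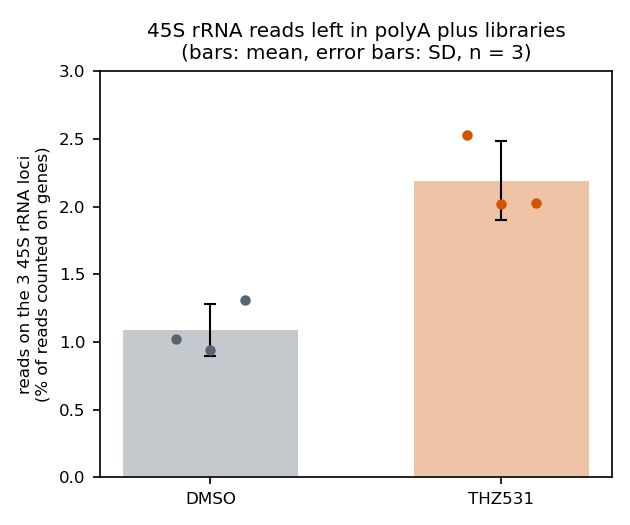
Share of the reads counted on genes that fell on the 3 loci of 45S rRNA (y axis, %) in DMSO and THZ531 (x axis), with bars for the mean, error bars for the SD and points for the 3 libraries of each group. The THZ531 libraries lie between 2.02% and 2.53%, and all DMSO libraries lie at or below 1.31%.

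Another set of 107 genes of the pathway was tested, written from textbook knowledge of the remaining Pol I subunits, snoRNP proteins and subunit assembly factors. All 107 were tested, 13 increased and 9 decreased (12.1% and 8.41%, against 15.7% and 23.9% of all loci), and their median log2 fold change was 0.20. With equal totals 5 were called higher, 17 lower and the median was -0.04, while scaling to RPL34 gave 0 and 35. Of all 17568 loci, 1647 were called higher and 5615 lower with equal totals, and 1078 and 7524 with RPL34. The values ran from -1.69 to 1.03, farther than those of the 43 genes, but such a range grows with the number of genes. The quartiles were close, -0.18 and 0.43 here and -0.13 and 0.49 for the 43 genes. Within the fold threshold lay 79.4% of this set and 79.1% of the 43 genes. The lowest value was that of PPAN, a 60S factor, with 3479 ± 337 normalized reads in DMSO and 1077 ± 63.3 in THZ531 (SD, n = 3, adjusted p = 8.2e-12), in a locus that also carries the symbol of its neighbor P2RY11. SURF6, a nucleolar rRNA binding protein, fell from 3479 ± 104 to 1308 ± 103 (-1.41, adjusted p = 1.1e-11), and FTSJ3, an rRNA methyltransferase, fell from 18568 ± 731 to 9515 ± 244 (-0.96, adjusted p = 5.3e-12). EMG1, which modifies the small subunit rRNA, had -0.92, and UTP3, of the small subunit processome, had -0.90. All 5 values were below the lowest of the 43 genes above, -0.73 for NIP7.

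The highest values of this set were those of RCL1, NMD3 and NUFIP1. RCL1, of the small subunit processome, rose from 3690 ± 158 to 7530 ± 39.9 normalized reads (SD, n = 3, log2 fold change 1.03, adjusted p = 7.4e-12), and NMD3, the export adaptor of the large subunit, rose from 4744 ± 26.6 to 9670 ± 260 (1.03, adjusted p = 2.5e-12). NUFIP1 and NAF1, which assemble box C/D and box H/ACA particles, had 1.02 and 0.92, and URB2, a nucleolar 60S factor, had 0.85. By role, 1 of 10 other Pol I subunits and termination factors increased (POLR1F, 0.73) and 1 decreased (POLR1H, -0.67). Of 10 snoRNP proteins and assembly factors 3 increased and 0 decreased, of 35 processome genes 2 increased and 4 decreased, of 8 late 40S factors 1 increased and 0 decreased, and of 44 large subunit factors 6 increased and 4 decreased.

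Sets that use or parallel this machinery gave other counts. Of 80 tested cytosolic ribosomal protein genes, the products of which the assembly factors join to rRNA, 6 increased and 1 decreased (7.5% and 1.25%, beside 15.7% and 23.9% of all loci), with a median of 0.40 and 78 above 0. Their median was 0.16 with equal totals and -0.09 with scaling to RPL34, with 0 called higher in either. The 12 subunits of RNA polymerase II include POLR2E, POLR2F, POLR2H, POLR2K and POLR2L. Pol I also contains these, and they were counted among the other pathway genes above, so the sets overlap. The 12 subunits had a median of 0.29, with 1 called higher and 0 lower, and medians of 0.04 with equal totals and -0.21 with RPL34. The 10 subunits specific to RNA polymerase III, which makes 5S rRNA and tRNA, had a median of -0.31, with 1 called higher and 4 lower, and -0.55 and -0.80 under those scalings. The 76 mitochondrial ribosomal protein genes had a median of 0.00, with 4 called in each direction, and -0.24 and -0.49 under those scalings. These values are given side by side, and differences between the sets were not tested.

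Genes named for context had the following values. CDK12, one of the targets of the inhibitor, had means of 6762 and 8835 normalized reads (log2 fold change 0.39, not called), and CDK13 had 3918 and 3863 (-0.02, adjusted p = 0.70). MYC, a known regulator of the pathway, had 2058, 2084 and 2389 in DMSO and 5010, 4955 and 5050 in THZ531 (1.20, SE 0.06, adjusted p = 2.6e-11). RPL34 had 12999 ± 1180 and 18247 ± 86.8 (SD, n = 3, 0.49). The values were also set beside the span of the gene on the genome. Over the 42 tested genes outside the chromosome 2 stretch, which share their libraries and run from 1.7 to 106.5 kb, the Spearman correlation of span with log2 fold change was 0.03, and over all 15278 tested loci with a symbol it was -0.06. The 21 genes with the shorter span had a median of 0.20 (3 called higher, 2 lower), and the 21 with the longer span 0.14 (4 and 0).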

How the data were processed

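PolyA plus RNA-seq of 6 OVCAR3 libraries was analyzed. Per the study's methods, the authors used STAR and hg38 for mapping and featureCounts with FAST DB genes for counting, and deposited values normalized with DESeq2, a signal that is never negative. The processing notes name STAR 2.7.5a, while the methods name another version, and the labels and methods name different extraction kits. Whether counting used strand is not given in the sources used here. Multiplied by the size factor, 100% of the values were whole reads within 0.1 read, and these reads were recovered. The 20784 loci without a symbol were kept as loci of their own.

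Values were tested as log2(value + 1), which understates fold changes of low genes, with limma 3.58.1 (trended variance, no covariates) in R 4.3.3, and adjusted by Benjamini-Hochberg. edgeR 4.0.16 and DESeq2 1.42.0 on the recovered reads were alternatives, beside other scalings, thresholds, minimums and pseudocounts and leaving out each library. The fit was tested on simulated data. Transcript lengths came from GENCODE v44. The permutation test used scipy 1.17.1.

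The genes and lists were chosen with earlier results of these data known. Values per library were given for Pol I genes, for NCL, NPM1, FBL, DKC1 and NOLC1, and for up to 6 lowest and 4 highest of the other genes past both thresholds with groups that did not overlap. Of the other pathway genes, the 5 lowest and 5 highest called ones with a mean of at least 100 were named. POLR1F, POLR1H, the RRN3 pseudogenes, the small nucleolar RNAs, GLT8D1 and genes of the chromosome 2 stretch were chosen after their values were seen. BOP1, UTP15, GAR1, UTP20 and WDR12 were described in more detail for the same reason.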

Additional observations from a re-analysis of the deposited data

How the results depend on the processing

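The calls depended most on the scaling and the fold threshold. With a fold change of 2, 4042 loci were called, 2689 lower and 1353 higher, among them 0 of the 43 genes in either direction and, of the other pathway genes, 2 lower and 3 higher. With scaling to the same total, 1647 loci were called higher, the 43 genes had 4 lower and 0 higher with a median of -0.05, the other pathway genes had 17 lower and 5 higher with a median of -0.04, 77.3% of the called loci were lower instead of 60.4%, and TAF1D had -0.13. With scaling to RPL34, 7524 loci were called lower and 1078 higher (87.5% lower), the 43 genes had 11 lower and 0 higher with a median of -0.30, and the other pathway genes had 35 lower and 0 higher with a median of -0.29. There 18 of the 29 genes above 0 in the deposited scaling were below 0 (9 with the same total and 1, TCOF1, with the upper quartile). Of the genes given by library and for context, POLR1B (-0.06), POLR1C (-0.21), RRN3 (-0.10), TAF1D (-0.38), DKC1 (-0.09) and CDK12 (-0.11) turned in direction with RPL34 (NOLC1 lay at 0.00), as did the medians of the cytosolic ribosomal protein genes (-0.09) and of the RNA polymerase II subunits (-0.21), a scaling of these sets that was added after their values were seen. GAR1 also turned below 0, with RPL34 and with the same total. The median of the other pathway genes was 0.18 with scaling to the upper quartile and with edgeR. With each library left out, the median of the 43 genes ranged from 0.16 to 0.21 (0.16 without THZ531 replicate 3), their calls from 5 to 7 higher and from 2 to 3 lower, and the main rRNA locus from 1.27 to 1.52. edgeR, upper-quartile scaling and leaving out THZ531 replicate 3 each called 5 genes higher, without BOP1 and UTP15. The cause of these differences was not tested, beyond the shift that each scaling applies. Libraries with the same replicate number did not deviate together (correlations from -0.039 to 0.028 over all pairs of a DMSO with a THZ531 library). No pairing by number was seen, but with 3 libraries in each group this check cannot exclude it. With the replicate number as a block 6918 loci and 7 and 2 of the genes were called. NCL did not reach the minimum, WDR12 was tested at about 30 normalized reads, and the cause of their low values was not tested.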

Other observations

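The values of this part were chosen after they were seen. The U3 small nucleolar RNA, the core RNA of the small subunit processome, is listed as SNORD3A (chromosome 17, 19188016 to 19188232 on hg38), one of several near-identical copies, so that its share of their reads is uncertain. It had 50.8, 57.5 and 46.3 normalized reads in DMSO and 580.6, 560.4 and 518.8 in THZ531, with no overlap and a 10.7-fold increase (log2 fold change 3.40, SE 0.15, adjusted p = 2.0e-11, limma). Of the proteins of the same particle, RRP9 was not called (-0.07), and NOP56, a box C/D core protein, was called higher (0.77). The other box C/D proteins FBL (0.57), NOP58 (0.52) and SNU13 (0.58) were under the fold threshold. RMRP, the RNA of the ribonuclease that cuts the rRNA precursor, had 119.1, 87.2 and 62.2 in DMSO and 113.4, 77.3 and 109.2 in THZ531, and the groups overlapped (0.19, adjusted p = 0.53). Some other short RNAs were called and some were not. SNORD13, the U13 small nucleolar RNA, had 0, 0 and 4.0 normalized reads in DMSO and 16.4, 12.5 and 21.6 in THZ531, and was called higher at very low counts (adjusted p = 0.0018). RPPH1, the RNA of RNase P, was called higher with overlapping groups (188.9, 66.8 and 93.4 against 139.8, 185.3 and 230.9, log2 fold change 0.77, adjusted p = 0.028), whereas RN7SK and RN7SL1 had 0.21 and 0.36 and were not called. These RNAs mostly lack a polyA tail, so the values count what remained after selection. Inside BOP1 the gene SCX, on the opposite strand, was called lower (99.3 to 31.8 on average, -1.65, adjusted p = 6.1e-05), while BOP1 increased. POLR1E lies within a longer locus without a symbol, from 37404453 to 37912669 on chromosome 9, which was called lower (68.4 to 3.1 on average, -4.08, adjusted p = 9.3e-07), while POLR1E was not called.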
